A study of Rattus norvegicus with 8 samples.

Results

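The rows examined here were the small RNA genes of a gene expression table of rat Achilles tendon, chosen by the gene type given in the table: miRNA, snoRNA, snRNA, scaRNA, misc_RNA, ribozyme, rRNA, Mt_rRNA or Mt_tRNA. They comprised 212 of the 15590 rows. Of these, 85 were snoRNAs, 83 miRNAs, 12 misc_RNA, 8 snRNAs, 8 mitochondrial tRNAs, 6 rRNAs, 5 scaRNAs, 3 ribozymes and 2 mitochondrial rRNAs. The table held 8 libraries, each from the right Achilles tendon of a wild-type male Sprague-Dawley rat aged 8 to 10 weeks. The 4 libraries of the 0 h p.r. group (p.r., post-running) came from rats that ran uphill on a treadmill for 1 h, kept moving with airflow and weak electric stimulation, and were killed at once. The 4 naïve control (NC) libraries came from rats that did not run. The methods of the study put the killing of the cage controls at the time of a later post-run group, whereas the sample labels say that both groups were killed immediately. If the methods hold, the time of killing and running cannot be told apart.

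All libraries were prepared from RNA captured by its poly(A) tail, and this bears on every value that follows. Mature miRNAs, most snoRNAs and snRNAs, tRNAs and cytoplasmic rRNAs carry no such tail. A miRNA is cut from a hairpin in a longer primary transcript by the Drosha and Dicer nucleases, and a vertebrate snoRNA is usually trimmed out of a spliced intron of its host gene. In a poly(A) library a read on such a gene can therefore come from a primary transcript, an unspliced host transcript, an overlapping exon, an adenylated intermediate or RNA carried through the capture. The table does not separate these sources, and a value below is a number of reads on the interval of the gene, not a level of mature small RNA. In bulk tissue, fewer cells of a type and less RNA per cell cannot be told apart either.

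The mature sequences are shown for the miRNA genes on which the results turn, with one family added as a case of a shared seed. RefSeq (build GRCr8) held mature sequences for 21 of the 83 miRNA genes. The capitals mark the seed, bases 2 to 8 from the 5′ end, which does most of the pairing with target mRNAs. The first lines give the miRNA of the called miRNA gene that was higher after running (Mir207), both arms of Mir675, the most read of the miRNA genes with a sequence in RefSeq, both arms of Mir24-2 and the miRNAs of Mir6328 and Mir3064. The last lines give the let-7 miRNAs with rows in the table, which regulate developmental timing and cell growth.
rno-miR-207: cUUCUCCUggcucuccucccuuu
rno-miR-675-5p: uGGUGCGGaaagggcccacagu
rno-miR-675-3p: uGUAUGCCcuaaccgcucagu
rno-miR-24-3p: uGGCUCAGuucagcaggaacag
rno-miR-24-2-5p: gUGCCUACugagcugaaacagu
rno-miR-6328: aGGCCUGCucugagcccccgc
rno-miR-3064-3p: uUUGCCACacugcaacaccuuaca
rno-let-7b-5p: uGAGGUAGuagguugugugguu
rno-let-7c-5p: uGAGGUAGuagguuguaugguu
rno-let-7d-5p: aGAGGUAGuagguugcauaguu
rno-let-7i-5p: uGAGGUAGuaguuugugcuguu
The 4 let-7 miRNAs share their seed, and no other seed was shared with them among the 33 mature sequences found. The miRNAs shown are 21 to 24 bases long, while the rows of the table cover the hairpin. The gene length recovered from the table equalled that of the RefSeq hairpin in 19 of 20 genes, for example 78 bases for Mir207, 84 for Mir675 and 108 for Mir24-2.

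Because these genes are short, few reads stood behind most values. Whole reads could be recovered from the FPKM values (fragments per kilobase of gene, scaled to the depth of the library), and the depth over the listed genes was 11353941 to 17903265 reads per library. The median small RNA gene was 102 bases long and had a mean of 9.75 reads per library, against 2286 bases and 235 reads for the other genes. A mean under 10 reads was found for 109 of the 212 small RNA genes (51.4%) and for 8.63% of the other genes. For a gene of 100 bases, 3 reads were worth 1.65 to 3.03 FPKM depending on the library. Small RNA genes therefore took 4.83 to 9.40% of a library's FPKM with only 0.611 to 1.48% of its reads.

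The spread between libraries of a group was larger than counting error in most genes. Below 10 mean reads, the within-group variance was a median of 2.24 times the counting variance for small RNA genes and 2.20 times for other genes with as few reads. From 10 to under 30 reads it was 2.94 times against 2.82 times. From 100 reads upward it was 187 times for the 22 small RNA genes and 12.4 times for the other genes. This ratio grows with the number of reads. Of the 22 genes, 15 were miRNA genes, 3 mitochondrial tRNAs, 2 mitochondrial rRNAs, 1 a ribozyme and 1 an rRNA. The ratio was high in miRNA genes as well as in mitochondrial rows, for example 2694 in AABR07063425.1 and 2161 in Mir675.

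NC replicate 2 had the lowest depth and the largest share of reads on mitochondrial rRNA and tRNA, 1.29% against 0.532 to 0.906% in the other libraries. Tendon markers were present in every library, with a summed FPKM of 3692 to 7103. All 12 adipocyte markers had a negative log2 fold change (median -1.69), 6 of them past both thresholds, while skeletal muscle markers ranged from 1343 to 45039 summed FPKM within the 0 h p.r. group. All 7 tested bone markers and all 7 tested cartilage markers had a positive log2 fold change (medians 1.56 and 1.63), with none past both thresholds. No part of these shifts in the small RNA values was tested.

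Whether running changed reads on small RNA genes was tested with limma on log2(FPKM + 0.5) across the 13863 genes whose FPKM reached 0.5 in 4 or more libraries, of which 210 were small RNA genes. The thresholds were those of the study, namely 0.05 for the Benjamini-Hochberg adjusted p and 2 for the fold change. Of the 210 small RNA genes, 6 passed both thresholds (2.86%), against a background of 2.7% of all tested genes. Of these, 5 were higher in 0 h p.r., where the background was 1.8%, and 1 was lower, where it was 0.894%. With voom on the recovered reads 1 small RNA gene was called (0.476%, against 2.99% of all genes in that fit). On log2(RPM + 0.5), with RPM the reads scaled to library depth without gene length, limma called 0 (against 2.41%) and gave 25 an unadjusted p under 0.05. The pseudocount of that scale is worth several reads for every gene, which shrinks the fold changes of genes with few reads. In the fit on log2(FPKM + 0.5), 9 small RNA genes (4.29%) had an adjusted p under 0.05 at any fold, against 5.72% of all tested genes. The NC and 0 h p.r. values did not overlap in 20 small RNA genes (9.52%), 16 higher and 4 lower. They did not overlap in 15.6% of all tested genes, 1130 higher and 1036 lower. The share called was near that of all genes, and the share with groups apart was below it. Among tested genes with under 10 mean reads, groups were apart in 11.1% of 108 small RNA genes and 9.61% of 281 other genes. Among the 102 tested small RNA genes with 10 or more mean reads it was 7.84%. The 2 genes left out by the filter were AABR07015056.1, annotated as a miRNA, with reads in NC replicate 4 and 0 h p.r. replicates 1 and 3, and Rn5-8s, a copy of 5.8S rRNA with 42 and 38 reads in NC replicates 3 and 4 and at most 1 read elsewhere.

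**Figure D1:**
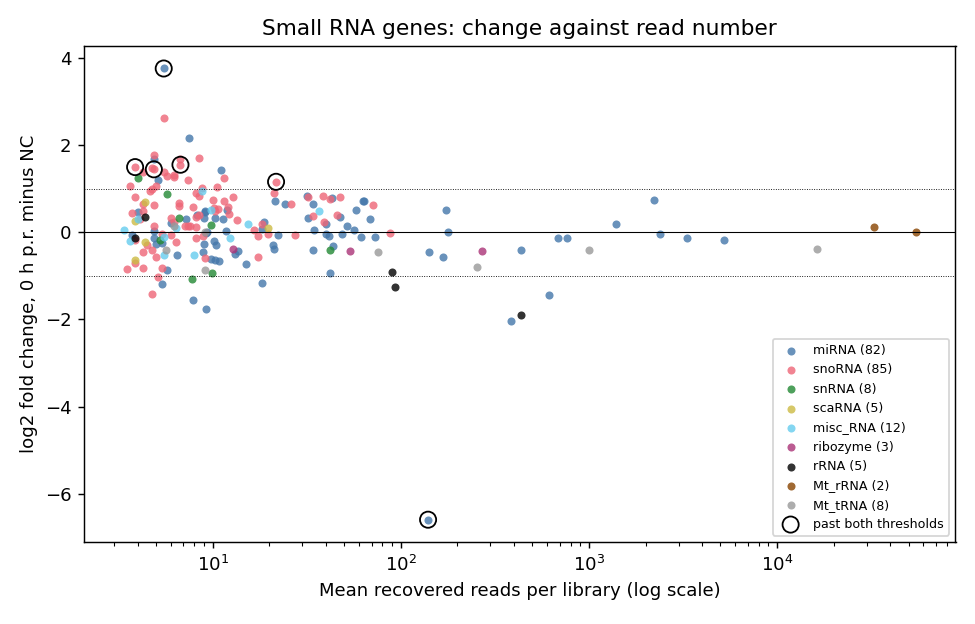
Log2 fold change (0 h p.r. minus NC, limma on log2(FPKM + 0.5)) of the 210 tested small RNA genes against mean recovered reads per library on a log scale, coloured by gene type. Dotted lines mark a fold change of 2, and 4 of the 6 circled genes past both thresholds lie under 10 mean reads.

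The called rise with the highest fitted value was that of Mir207, a miRNA gene at chr5:60638796-60638873 on the plus strand of GRCr8. It had 0 reads in all 4 NC libraries and 1, 22, 10 and 11 reads in 0 h p.r. replicates 1 to 4. The 0 h p.r. mean was 8.58 ± 6.03 FPKM (SD, n = 4), at least 3.05-fold above the level that 3 reads per NC library would give. The fitted log2 fold change was 3.75 ± 0.629 (SE, limma adjusted p = 0.0130), and its size depends on the pseudocount because the NC group was at 0. Mir207 was the only tested small RNA gene that passed the filter through the 0 h p.r. libraries alone, and in the fit of all 15590 genes without a filter its adjusted p was 0.0135. The groups did not overlap, although 0 h p.r. replicate 1 rested on 1 read. With voom on the recovered reads the log2 fold change was 3.94 (adjusted p = 0.0318), whereas on log2(RPM + 0.5) it was 1.12 and no longer called (adjusted p = 0.0943). Mir207 could not be tested without any one of the 0 h p.r. libraries, since too few remained above the filter.

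In RefSeq, Mir207 overlaps Dnaja1 on the same strand, and its placement in an exon or intron was not read. Dnaja1 encodes an Hsp40 co-chaperone that works with Hsp70 in protein folding and is induced by heat shock. Its values were 140, 109, 105 and 133 FPKM in NC replicates 1 to 4 and 315, 330, 338 and 263 FPKM in 0 h p.r. The groups were far apart, and the log2 fold change was 1.36 ± 0.149 (SE, limma adjusted p = 0.00205). Reads from a Dnaja1 transcript, spliced or not, and from the Mir207 hairpin cannot be told apart in these libraries. Whether the counting used strand is not given in the sources used here. Across libraries the order differed, as 0 h p.r. replicate 1 had 1 read on Mir207 beside 315 FPKM for Dnaja1.

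**Figure D2:**
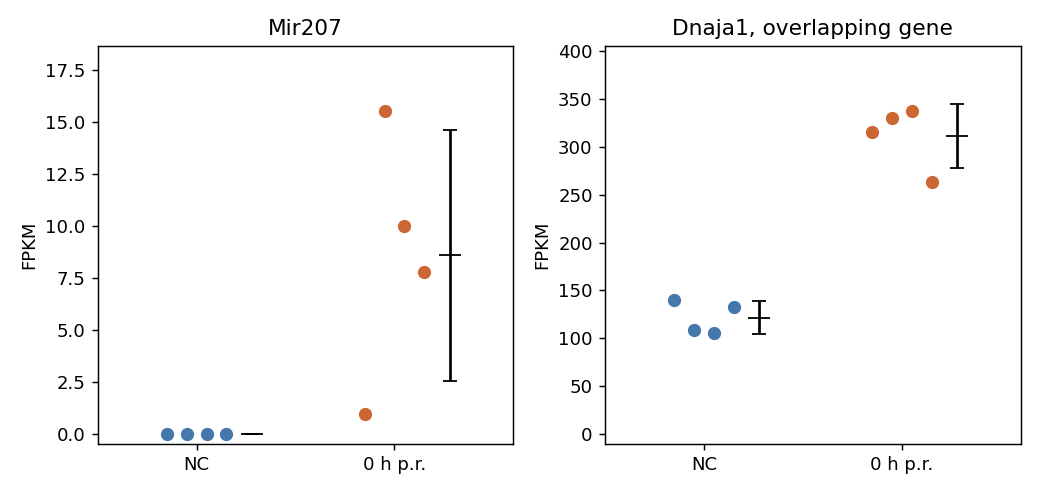
FPKM of Mir207 (left) and of Dnaja1, the gene that overlaps it on the same strand (right), with a point per library and mean ± SD (n = 4) beside each group. Mir207 is at 0 in every NC library, and Dnaja1 lies between 263 and 338 FPKM after running and between 105 and 140 FPKM in NC.

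The only called fall was that of AABR07000402.1, a row of 49 bases annotated as a miRNA. It had 51, 929, 132 and 3 reads in NC replicates 1 to 4 and 0, 2, 0 and 1 reads in 0 h p.r. The NC mean of 540 ± 919 FPKM (SD, n = 4) was at least 134-fold above the level of 3 reads per 0 h p.r. library. The log2 fold change was -6.59 ± 1.55 (SE, limma adjusted p = 0.0433). A single library, NC replicate 2, held most of the reads, and NC replicate 4 was next to the 0 h p.r. libraries. The call was lost when any library other than NC replicate 4 was left out (adjusted p of 0.0501 to 0.114), and voom on the recovered reads gave an adjusted p of 0.301.

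The other 4 called genes were snoRNAs, which guide methylation or pseudouridylation of other RNAs, and all were higher in 0 h p.r. RF01241, named like the others after its Rfam family, had 1, 1, 2 and 1 reads in NC and 6, 10, 5 and 5 in 0 h p.r. Every post-run library thus exceeded every control on very few reads, and the log2 fold change was 1.49 ± 0.222 (SE, limma adjusted p = 0.00797). The 0 h p.r. mean of 2.34 FPKM was at least 1.90-fold above the level of 3 reads per NC library. This bound lies below the fold threshold of 2, so the reads do not secure a change of that size. RF01241 was the only one of the 6 genes that stayed past both thresholds whichever library was left out (adjusted p at most 0.0304). With voom on the recovered reads its adjusted p was 0.0531.

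RF00574 had 5, 3, 2 and 2 reads in NC and 8, 15, 10 and 9 in 0 h p.r. (log2 fold change 1.55, standard error 0.273, limma adjusted p = 0.0160). Without 0 h p.r. replicate 2 or 3 the adjusted p was 0.0604 or 0.0550. RF01290 had 2, 1, 4 and 1 reads in NC and 4, 8, 6 and 13 in 0 h p.r. (log2 fold change 1.44, standard error 0.316, limma adjusted p = 0.0352). The values of RF01290 touched at 4 reads but did not overlap on the FPKM scale, and its call was lost without any one of 5 libraries, NC replicates 1, 2 and 4 and 0 h p.r. replicates 2 and 3 (adjusted p 0.0715 to 0.0997).

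RF00560 (ENSRNOG00000061830) was the called snoRNA with the most reads, 12, 7, 20 and 12 in NC and 29, 38, 31 and 25 in 0 h p.r. Its mean rose from 6.78 ± 2.45 to 15.4 ± 3.40 FPKM (mean ± SD, n = 4), a log2 fold change of 1.15 ± 0.243 (SE, limma adjusted p = 0.0310). It was also the only small RNA gene called when at least 10 reads in at least 4 libraries were required, a filter that 106 small RNA genes passed. With voom its adjusted p was 0.0769 and on the RPM scale 0.0994, both above the threshold. Leaving out any one library other than NC replicate 3 or 0 h p.r. replicate 4 lifted its adjusted p to between 0.0643 and 0.0994.

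**Figure D3:**
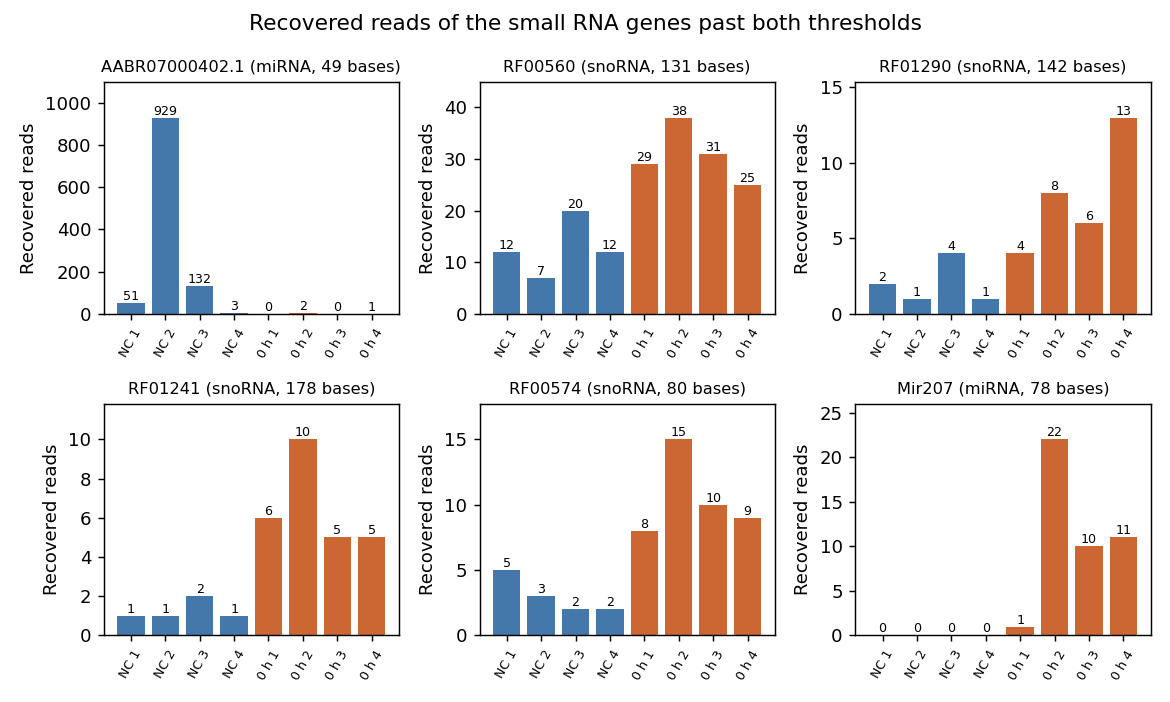
Recovered reads in each of the 8 libraries (NC in blue, 0 h p.r. in orange) for the 6 small RNA genes past both thresholds, with the read number above each bar. AABR07000402.1 rests on 929 reads in NC replicate 2, and no 0 h p.r. library exceeds 38 reads in the other 5 genes.

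A further 3 small RNA genes passed the adjusted p without reaching a fold of 2, and each was higher after running. RF00156, a snoRNA, had 21, 20, 20 and 24 reads in NC and 30, 50, 36 and 55 in 0 h p.r. (log2 fold change 0.81, standard error 0.173, limma adjusted p = 0.0327). RF00281, the box C/D snoRNA U47, had 53, 16, 31 and 37 reads in NC and 58, 79, 48 and 60 in 0 h p.r. (log2 fold change 0.79, standard error 0.188, limma adjusted p = 0.0441). AC105645.3, annotated as a miRNA, had 62, 25, 48 and 49 reads in NC and 68, 85, 64 and 108 in 0 h p.r. (log2 fold change 0.72, standard error 0.133, limma adjusted p = 0.0193). None of the 3 had overlapping groups on the FPKM scale. Their reads were more numerous than those of most called genes and their differences smaller. None of the 3 kept an adjusted p under 0.05 with voom (0.0608 to 0.0978) or on the RPM scale (0.130 to 0.184).

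Gm23134, a 90-base row annotated as a miRNA, lay just outside the threshold. Its reads were 1169, 490, 399 and 305 in NC and 56, 171, 94 and 384 in 0 h p.r. The mean was 453 ± 231 FPKM in the NC libraries and 117 ± 82.8 in 0 h p.r. (mean ± SD, n = 4), a log2 fold change of -2.04 ± 0.512 (SE, limma adjusted p = 0.0516). Replicate 4 of 0 h p.r. was the exception, at 236 FPKM against 228 in NC replicate 4, and without it the log2 fold change was -2.46 and called (adjusted p = 0.0149). The summed FPKM of the 12 adipocyte markers was 7035, 5863, 3641 and 3550 in NC and 1209, 1674, 2037 and 2716 in 0 h p.r. Both measures were highest in NC replicates 1, 2 and 3, in that order, and lowest in 0 h p.r. replicate 1. The part of adipocyte content in this row was not tested.

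Mir675, the miRNA gene within the H19 RNA, an imprinted transcript of growing muscle and other tissues, was not called. It had 631, 866, 2505 and 964 reads in NC and 7291, 2638, 2447 and 313 in 0 h p.r. (log2 fold change 0.74, standard error 0.944, limma adjusted p = 0.710). Its highest and lowest libraries were both in the 0 h p.r. group, replicates 1 and 4. The summed FPKM of the skeletal muscle markers was 5162, 10027, 9169 and 5943 in NC and 45039, 7653, 20473 and 1343 in 0 h p.r. The same libraries, 0 h p.r. replicates 1 and 4, were the highest and lowest for the markers, and the part of muscle in the Mir675 values was not tested. H19 itself was not analysed here.

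**Figure D4:**
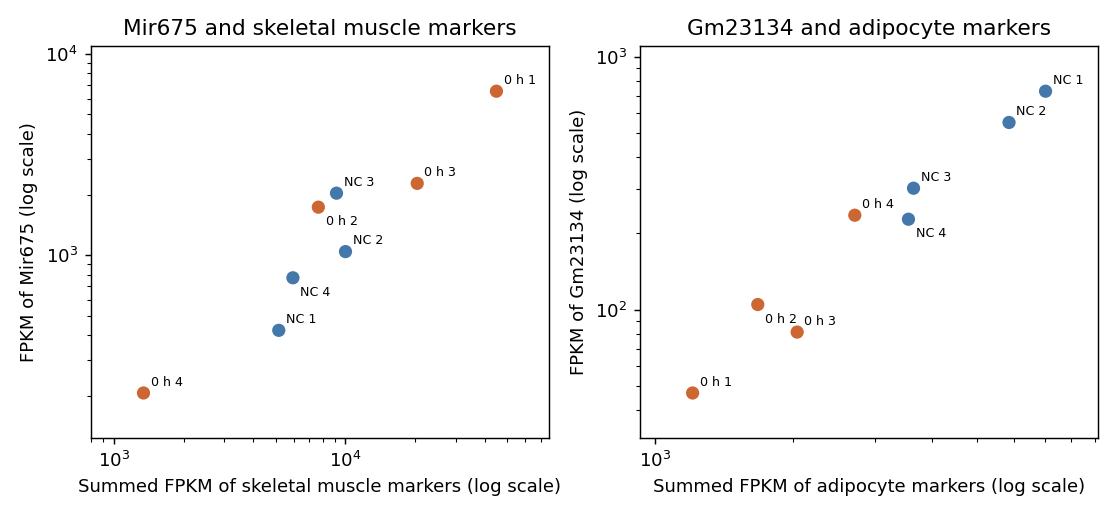
FPKM of Mir675 against the summed FPKM of skeletal muscle markers (left) and of Gm23134 against that of adipocyte markers (right), with a labelled point per library on log axes. Mir675 and the muscle markers are both highest in 0 h p.r. replicate 1 and lowest in 0 h p.r. replicate 4, while Gm23134 and the adipocyte markers are both highest in NC replicate 1.

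Most snoRNAs lay on the positive side. Of the 85 tested, 63 had a log2 fold change above 0 (74.1%) with a median of 0.53, against 49.9% and -0.0014 for all tested genes. Among the 76 snoRNAs with under 30 mean reads, all of them tested, the share was 72.4%. Of 2857 other genes with under 30 mean reads, 1206 passed the filter, and among these it was 42.6%. The FPKM filter asks for more reads of a longer gene, so the 2 sets are not matched. On the RPM scale the snoRNAs summed to 62.4, 46.4, 65.9 and 76.3 in NC and to 67.8, 97.8, 85.9 and 71.3 in 0 h p.r. These sums overlapped, since NC replicate 4 exceeded 0 h p.r. replicates 1 and 4. The groups did not overlap in 13 of the 85 snoRNAs (15.3%, against 15.6% of all tested genes). Of the 13, 12 were higher after running and 1 lower, while among all tested genes 1130 were apart and higher and 1036 apart and lower. The lower snoRNA was RF00400 (ENSRNOG00000055844), at 5, 10, 8 and 5 reads in NC and 1, 5, 2 and 2 in 0 h p.r. (log2 fold change -1.42, limma adjusted p = 0.068). The median difference kept its sign in every alternative fit, from 0.23 on the RPM scale, where all genes had a median of -0.08, to 0.61 without 0 h p.r. replicate 4.

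The 85 snoRNAs fell into 2 lengths with none between 104 and 124 bases. Box C/D snoRNAs, which guide methylation, are mostly the shorter kind, and box H/ACA snoRNAs, which guide pseudouridylation, the longer. In the 42 shorter genes the median log2 fold change was 0.58, with 36 above 0 and 1 called. In the 43 longer genes it was 0.45, with 27 above 0 and 3 called. The shares called were 2.38% and 6.98%, against 2.7% of all tested genes, and rest on these few genes. The difference between the lengths was not tested.

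Several box C/D snoRNAs with rows in the table are known to come from introns of the same host transcript, and this grouping was made after their values were seen. U22, U25, U27, U28, U29, U30 and U31 (RF00099, RF00054, RF00086, RF00085, RF00070, RF00088 and RF00089) are encoded together in Snhg1. U29 had the most reads, 69, 37, 42 and 60 in NC and 65, 114, 61 and 121 in 0 h p.r., with a log2 fold change of 0.63 ± 0.162 (SE, limma adjusted p = 0.0547). U31 had 5, 2, 5 and 15 reads in NC and 14, 30, 13 and 8 in 0 h p.r., and U27 had 6, 2, 6 and 11 against 10, 30, 12 and 7. Both overlapped between the groups, with log2 fold changes of 1.25 and 1.04 and adjusted p-values of 0.176 and 0.213. U30, from the same host, had 18, 20, 12 and 20 reads in NC and 17, 47, 11 and 13 in 0 h p.r., a log2 fold change of -0.03. U28 had 6, 2, 8 and 6 reads in NC and 10, 13, 10 and 10 in 0 h p.r. The FPKM groups of U28 and U29 did not overlap, as in 15.6% of all tested genes. U22 had 36, 13, 39 and 19 reads in NC and 38, 71, 33 and 61 in 0 h p.r., and its groups overlapped. Those of U25 overlapped too, at 9, 1, 1 and 8 against 4, 19, 11 and 6 reads. None of the 7 passed the adjusted p, and U25, U27, U30, U31 and U22 were each highest in 0 h p.r. replicate 2.

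From the Gas5 host, U44, U47, U74, U78 and U81 (RF00287, RF00281, RF00284, RF00592 and RF00136) had rows. U47 passed the adjusted p as given above. U81 had 51, 13, 26 and 33 reads in NC and 37, 65, 45 and 67 in 0 h p.r. (log2 fold change 0.77, limma adjusted p = 0.078), and U44 had 51, 12, 43 and 56 against 40, 67, 50 and 47 (log2 fold change 0.38, limma adjusted p = 0.535). U78 and U74 had log2 fold changes of 0.23 and 0.13. All 5 were positive, but only U47 passed the adjusted p. Snhg1 and Gas5 themselves were not analysed here, so host and snoRNA could not be set side by side.

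The most read snoRNA was RF00561, which did not follow the rest. It had 101, 57, 83 and 102 reads in NC and 98, 75, 92 and 97 in 0 h p.r., means of 46.8 ± 4.53 and 47.0 ± 12.1 FPKM (SD, n = 4). The log2 fold change was -0.03 ± 0.188 (SE, limma adjusted p = 0.957). The longer snoRNA RF00413 had 27, 3, 22 and 12 reads in NC and 22, 36, 23 and 25 in 0 h p.r., and its log2 fold change of 0.90 rested largely on low values in NC replicates 2 and 4, and it did not pass the test.

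**Figure D5:**
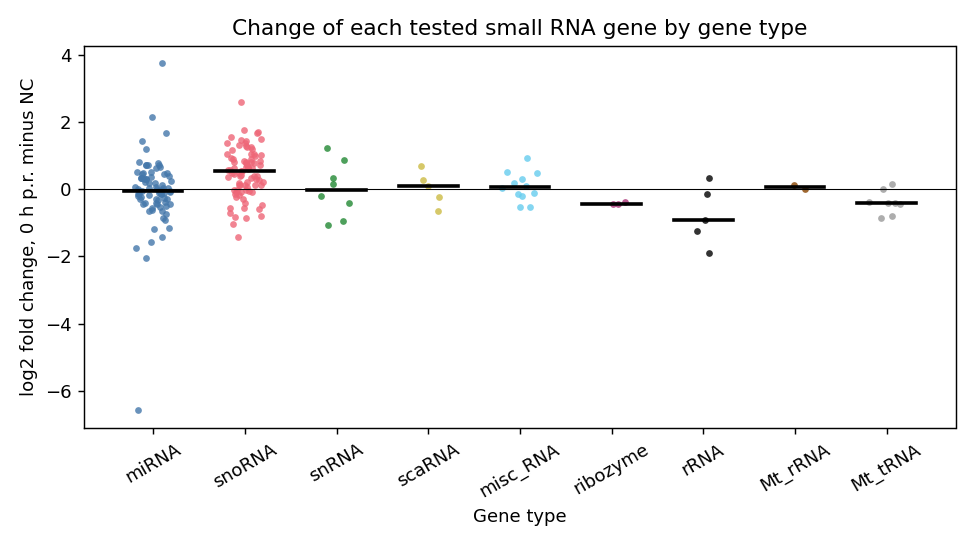
Log2 fold change (0 h p.r. minus NC) of each of the 210 tested small RNA genes by gene type, with the median of each type as a bar. The snoRNA median is 0.53, the miRNA median is -0.04 and the rRNA median is -0.92.

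The 82 tested miRNA genes were centred near 0, with 39 higher and 43 lower and a median log2 fold change of -0.04. Only Mir207, AABR07000402.1 and AC105645.3 passed the adjusted p (3.66%, against 5.72% of all tested genes). Mir24-2, from a cluster with Mir23a and Mir27a, had 3, 2, 7 and 11 reads in NC and 9, 16, 16 and 25 in 0 h p.r., with a log2 fold change of 1.43 ± 0.409 (SE, limma adjusted p = 0.0756). Its groups overlapped through NC replicate 4, and without that library it was called (log2 fold change 1.77, adjusted p = 0.0381). Mir6328 had 199, 81, 145 and 136 reads in NC and 191, 251, 181 and 214 in 0 h p.r., with FPKM groups that did not overlap (log2 fold change 0.50, limma adjusted p = 0.061). Groups were apart in 5 of the 82 tested miRNA genes (6.10%, against 15.6% of all tested genes).

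The let-7 genes, whose mature forms share the seed shown above, had low and scattered values. Mirlet7b had 12, 5, 17 and 15 reads in NC and 9, 15, 1 and 35 in 0 h p.r. (log2 fold change -0.43). Mirlet7c2 had 5, 0, 3 and 0 against 1, 6, 4 and 20 (log2 fold change 1.67). Mirlet7i had 1, 5, 5 and 1 against 6, 10, 7 and 6 (log2 fold change 1.19), and Mirlet7d had 8, 0, 8 and 2 against 3, 1, 2 and 6 (log2 fold change -0.06). The 4 genes had standard errors of 0.529 to 0.822, and none passed the test (limma adjusted p 0.222 to 0.975).

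Mir126a lies at the endothelial gene Egfl7 but on the opposite strand in RefSeq, where its mature form is rno-miR-126b. It had 47, 22, 23 and 49 reads in NC and 25, 51, 31 and 74 in 0 h p.r. (log2 fold change 0.19, limma adjusted p = 0.743). Mir143 and Mir145, abundant in smooth muscle, had log2 fold changes of -0.64 and -0.45 (adjusted p 0.371 and 0.651) on 3 to 19 reads per library. Mir22, which is found in many tissues, had 25, 26, 28 and 16 reads in NC and 38, 44, 20 and 77 in 0 h p.r. (log2 fold change 0.64, limma adjusted p = 0.304). In all 4 genes the groups overlapped.

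Overlapping genes were available for comparison in 13 members, 5 of them on the same strand in RefSeq. Beside Mir207 and Dnaja1, the same-strand pairs were Mir186 and Zranb2, Mir3064 and Ddx5, Mir3074 and Fancc, and Mir7a1 and Hnrnpk. Ddx5, a helicase of the Microprocessor that cuts miRNA hairpins, averaged 202 FPKM in NC libraries and 271 after running (log2 fold change 0.42, limma adjusted p = 0.0864). Mir3064, which overlaps it, had 214, 71, 159 and 183 reads in NC and 63, 105, 169 and 162 in 0 h p.r., a log2 fold change of -0.45 (adjusted p = 0.456). Gene and hairpin thus had fold changes of opposite sign, neither past the threshold. The log2 fold changes were 0.46 for Mir7a1 and 0.28 for Hnrnpk, and 0.79 for Mir3074 and -0.07 for Fancc. For Mir186 and Zranb2 they were 0.32 and -0.04. None of these genes passed the adjusted p. Egfl7 rose from a mean of 57.5 ± 7.87 in NC to one of 97.2 ± 14.7 FPKM (SD, n = 4), with a limma adjusted p of 0.0270 at a log2 fold change of 0.75, while Mir126a, annotated on the other strand, did not pass the test.

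Among the rows with the most reads, several short genes annotated as miRNAs differed several-fold between libraries of the same group. AABR07063425.1, of 57 bases, had 1188, 4829, 5171 and 12484 reads in NC and 4284, 3723, 6915 and 3016 in 0 h p.r. AABR07063425.2 had 1181, 4140, 3212 and 5381 against 3233, 2423, 4739 and 2235. AABR07015081.1 had 590, 1942, 1359 and 1185 against 1933, 1515, 1561 and 1015, and AABR07015080.1 had 320, 811, 732 and 1369 against 782, 744, 700 and 628. In all 4 rows NC replicate 1 was the lowest of the NC libraries, and their log2 fold changes of -0.17 to 0.20 had standard errors of 0.486 to 0.769.

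AABR07015079.1 had 102, 673, 1492 and 1511 reads in NC and 440, 192, 308 and 163 in 0 h p.r., a log2 fold change of -1.43 ± 0.898 (SE, limma adjusted p = 0.396). Without NC replicate 1 it was -2.42 and called (adjusted p = 0.0458). Gm22953, of 101 bases, was the steadiest of the abundant rows, with 1850 to 2848 reads in every library and a log2 fold change of -0.04 (standard error 0.248, adjusted p = 0.949).

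Cytoplasmic rRNA rows behaved likewise. RF00002 is the family of 5.8S rRNA, part of the large ribosomal subunit, and RF00001 that of 5S rRNA. The most read 5.8S copy (ENSRNOG00000056172) had 177, 230, 930 and 1312 reads in NC and 279, 40, 457 and 72 in 0 h p.r. (log2 fold change -1.89, standard error 0.964, limma adjusted p = 0.289). A further copy (ENSRNOG00000051831) had 11, 129, 24 and 437 against 11, 18, 71 and 47 (log2 fold change -1.25, adjusted p = 0.580). RF00001 had 43, 75, 112 and 248 against 36, 40, 70 and 97 (log2 fold change -0.92, adjusted p = 0.360). All 3 were highest in NC replicate 4, and copies of one family are so alike that the division of reads among them is uncertain.

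The 3 ribozyme genes are the RNA subunits of RNase P, which trims tRNA precursors, and of the related RNase MRP. Rpph1, the RNase P RNA, had 107, 307, 264 and 595 reads in NC and 261, 197, 181 and 241 in 0 h p.r. (log2 fold change -0.43, standard error 0.514, limma adjusted p = 0.686). RF00030, the MRP RNA, had 32, 41, 49 and 131 against 42, 45, 32 and 60 (log2 fold change -0.43, adjusted p = 0.580). Both were highest in NC replicate 4, as were the 3 rRNA rows of the preceding paragraph. A second RNase P row, RF00009, had 6 to 21 reads per library (log2 fold change -0.38). In RefSeq, Rpph1 overlaps Parp2, which averaged 15.8 FPKM in NC and 12.1 FPKM in 0 h p.r. (log2 fold change -0.35, standard error 0.223, limma adjusted p = 0.413). The part of Parp2 in the Rpph1 reads was not tested.

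The snRNAs, RNA components of the spliceosome, had few reads. A U2 row (RF00004, ENSRNOG00000054047) had 70, 16, 48 and 57 reads in NC and 28, 32, 27 and 58 in 0 h p.r. (log2 fold change -0.41, limma adjusted p = 0.465). RF00015, the U4 family, had 19, 10, 18 and 6 against 5, 5, 8 and 8 (log2 fold change -0.94, standard error 0.334, adjusted p = 0.133), and without NC replicate 4 its log2 fold change was -1.27 and called (adjusted p = 0.0328). A U6 row (RF00026, ENSRNOG00000054364) had 12, 15, 2 and 9 against 9, 11, 7 and 13. A longer U2 row (RF00004, ENSRNOG00000061400), named after its values were seen, had 3, 0, 3 and 3 against 3, 6, 6 and 8. It was the only snRNA row whose FPKM groups did not overlap (12.5%, against 15.6% of all tested genes). Its log2 fold change was 1.23 (adjusted p = 0.154). None of the 8 snRNA rows was called. The scaRNAs, which guide modification of snRNAs in Cajal bodies, held 3 named rows, RF01268, RF01295 and RF00478 (ENSRNOG00000053606), with log2 fold changes of 0.09, -0.22 and 0.70, none past the adjusted p. Of the misc_RNA rows, the 3 most read were copies of 7SK (RF00100), the RNA that holds the elongation factor P-TEFb inactive. The top copy (ENSRNOG00000058555) had 8, 24, 31 and 61 reads in NC and 63, 25, 32 and 49 in 0 h p.r. (log2 fold change 0.48, adjusted p = 0.687). The other 2 copies (ENSRNOG00000058789 and ENSRNOG00000051406) had log2 fold changes of 0.18 and -0.13.

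Mitochondrial RNA made up most small RNA reads. Mitochondrial rRNAs receive short A tails, and mitochondrial transcripts are cut apart at the tRNAs. The large rRNA (AY172581.24, 1571 bases) had 42700 to 76626 reads in NC and 50243 to 70304 in 0 h p.r. (log2 fold change 0.01, standard error 0.413, limma adjusted p = 0.992). The small rRNA (AY172581.9, 958 bases) had 24517 to 45187 against 28819 to 47558 (log2 fold change 0.13, adjusted p = 0.913). The largest tRNA row, AY172581.19, had 18297, 22787, 16565 and 13285 reads in NC and 18660, 13457, 13090 and 13796 in 0 h p.r. (log2 fold change -0.39, adjusted p = 0.754), and AY172581.2 had 1047, 1545, 965 and 893 against 901, 1095, 744 and 869 (log2 fold change -0.42, adjusted p = 0.514).

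In AY172581.21 the groups did not overlap, at 380, 324, 286 and 260 reads in NC and 228, 144, 211 and 207 in 0 h p.r., but the log2 fold change of -0.80 (standard error 0.286) had an adjusted p of 0.136. It was the only one of the 8 mitochondrial tRNA rows with groups apart (12.5%, against 15.6% of all tested genes). Beside these rows, all 13 mitochondrial protein-coding genes had a negative log2 fold change (median -0.31), and none was called. NC replicate 2 had the most mitochondrial reads in both kinds of gene.

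Genes encoding the protein partners of small RNAs were then read from the same fit. Of 117 tested genes in 5 lists, 2 were called, both higher after running (1.71%, against 2.7% of all tested genes). An adjusted p under 0.05 was found in 4 (3.42%, against 5.72% of all tested genes). In the list of miRNA processing, Zc3h12a, a nuclease that degrades inflammatory mRNAs and the terminal loops of pre-miRNAs, was 3.32, 2.48, 4.02 and 4.56 FPKM in the NC libraries and 10.3, 11.1, 8.72 and 9.20 in 0 h p.r. The groups were well apart, with a log2 fold change of 1.36 ± 0.178 (SE, limma adjusted p = 0.00518), and it was the only one of 21 tested genes called. Among 29 tested genes for the 3′ ends of small RNAs, Ints6, a subunit of the Integrator complex that cleaves snRNA transcripts, was 5.33, 4.08, 5.43 and 5.58 FPKM in the NC libraries and 11.8, 12.2, 11.2 and 10.3 in 0 h p.r. (log2 fold change 1.09, standard error 0.130, limma adjusted p = 0.00328). Tent4a, a poly(A) polymerase of the same list, passed the adjusted p at a log2 fold change of 0.76 (adjusted p = 0.0477).

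Of the 17 snoRNP genes none was called. Nolc1, a chaperone of snoRNPs in the nucleolus and Cajal body, passed the adjusted p, with a mean of 16.0 ± 1.04 FPKM without and 24.0 ± 2.98 FPKM with running (SD, n = 4), and its limma adjusted p was 0.0322 at a log2 fold change of 0.57. Nop56, a core protein of box C/D snoRNPs and itself a snoRNA host, had a log2 fold change of 0.58 (adjusted p = 0.0873). Nhp2, a core protein of box H/ACA snoRNPs, had the largest log2 fold change, 2.41, with a standard error of 1.27 (adjusted p = 0.303). It rested on 0 h p.r. replicates 2 and 3, at 41.0 and 38.5 FPKM, while replicates 1 and 4 had 0.452 and 0.499 FPKM and the NC libraries 0.409 to 1.01 FPKM. None of 28 spliceosomal snRNP genes and none of 22 partners of 7SK, SRP, RNase P, Y and vault RNA was called. The largest changes there were those of Lsm10 (-0.68, adjusted p = 0.108) and Snrpe (-0.51, adjusted p = 0.461), and of Rpp40 (-0.40, adjusted p = 0.289) and Ro60 (0.30, adjusted p = 0.547).

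Of 60 tested host genes of snoRNAs and miRNAs, 2 were called (3.33%, against 2.7% of all tested genes), both lower and both miRNA hosts. Mest, an imprinted gene that hosts Mir335, averaged 49.4 ± 8.54 FPKM in NC (SD, n = 4) and 19.2 ± 6.07 after running, with a log2 fold change of -1.37 ± 0.224 (SE, limma adjusted p = 0.0117). Myh6, a cardiac myosin gene that hosts Mir208a, was 2.58 ± 1.39 FPKM in the NC libraries and 0.436 ± 0.340 in 0 h p.r. (log2 fold change -1.68, standard error 0.374, limma adjusted p = 0.0368), and its adjusted p exceeded 0.05 when any library other than NC replicate 2 was left out (0.0519 to 0.101). Myh7b passed the adjusted p at a log2 fold change of -0.91 (adjusted p = 0.0388). Among 21 tested snoRNA hosts, Eif4a1, a translation initiation helicase, passed it at 148 ± 18.5 FPKM in the NC libraries and 240 ± 35.8 in 0 h p.r. (log2 fold change 0.69, limma adjusted p = 0.0368), and Wdr43 followed at 0.61 (adjusted p = 0.0636). The 9 tested replication-dependent histone genes, whose mRNAs also lack a poly(A) tail, held no call. Their largest changes were those of Hist2h2be (-1.14, adjusted p = 0.0861) and Hist2h2aa3 (-1.03, adjusted p = 0.162).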

How the data were processed

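Polyadenylated RNA from 8 rat Achilles tendons was sequenced, 4 NC and 4 0 h p.r., and libraries were placed in groups by their titles. According to the methods of the study, stranded libraries were aligned with HISAT2 2.1.0 to Rnor_6.0, and reads were counted with featureCounts 1.6.3. The authors used DESeq2 1.30.1 for normalization and their own comparison. The FPKM values deposited by the authors are scaled by gene length and library. The deposited fold changes and p-values of the authors' own comparison were not used. The table gives no positions, and no genome sequence was read.

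Whole reads and gene lengths were recovered from the FPKM values, which were whole multiples of the value of 1 read within 9.02e-05 reads for all 15590 genes. The depth was 11353941 to 17903265 reads per library. Floors (3 reads) cover counting error only. The 13863 genes whose FPKM reached 0.5 in 4 or more libraries were tested on log2(FPKM + 0.5) with limma 3.58.1 in R 4.3.3 (trend, two-sided, no covariate), and p-values were adjusted by Benjamini-Hochberg over all of them. A called gene had an adjusted p below 0.05 and at least a 2-fold change. Fold changes on this scale understate those of low genes. The step that recovers reads and the fit were tested on simulated data. The titles number the libraries as replicates, and the methods took right-leg tendons of the rats. Neither states outright that each library is a separate animal, so p-values set group differences against the spread between these libraries.

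Named were all small RNA genes with an adjusted p under 0.05, the 10 most read, the 3 most read of each type, the 5 largest rises and 5 largest falls with at least 10 mean reads, called members of each gene list or else the 2 with the largest change, and genes overlapping a named member. The Snhg1 and Gas5 snoRNAs, RF00400, the longer U2 row, Mir6328, Mir22, Mir126a, Mir143, Mir145, Mir186, Mir3064, Mir3074, Mir7a1 and the let-7 genes were named after their values were seen. The members and lists were chosen with earlier results of these data known. RPM values are recovered reads scaled to depth. RefSeq (GRCr8) matched 26 of the 212 genes by symbol and supplied mature miRNA sequences and overlaps. The alternatives were pseudocounts of 0.1 and 1, testing all genes or only those with at least 10 reads in 4 libraries, log2(RPM + 0.5), voom on the recovered reads, scaling by quantiles or by median ratios, a block for the replicate number, weights per library, fits that lacked each library in turn, and the adjusted p without the fold. Python 3.11.15 and pandas 2.3.3 were used for the other steps.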

Additional observations from a re-analysis of the deposited data

Results flagged for a closer look

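Values of the 43 named small RNA genes were examined for a library that stands apart within its group of 4, by Dixon's criterion at 95%. It was met in 7 of 85 groups with any spread, where chance alone meets it in about 1 of 20. In NC, replicate 2 stood apart in 5 rows. It was at 1914 FPKM for AABR07000402.1, where the other NC libraries had 4.11 to 184 FPKM. It was at 4924 FPKM for the mitochondrial rRNA AY172581.24 (others 1529 to 1973), at 4762 for the mitochondrial rRNA AY172581.9 (others 1476 to 1809), at 33339 for the mitochondrial tRNA AY172581.19 (others 12938 to 16355) and at 2294 for AY172581.2 (others 866 to 967). NC replicate 4 stood apart for the snoRNA RF00561 at 53.5 FPKM (others 44.2 to 45.0), and 0 h p.r. replicate 1 for the scaRNA RF01268 at 6.87 FPKM (others 2.06 to 2.65).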

How the results depend on the processing

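The number of small RNA genes called, 6 in the reported fit, was 6 or 7 under both other pseudocounts, no filter, and quantile and median-ratio scaling. It was 1 with at least 10 reads in at least 4 libraries, a filter that 106 small RNA genes passed (0.943%, against 2.55% of all genes in that fit), 1 with voom on the recovered reads (against 2.99%), 0 on log2(RPM + 0.5), where limma gave 25 small RNA genes an unadjusted p under 0.05 and 2.41% of all genes were called, and 11 with array weights (5.24%, against 3.64%). On that scale the pseudocount is worth several reads for every gene, while 0.5 FPKM is worth less than 1 read at 100 bases. Leaving out each library in turn gave 1 to 8 calls, with 3 when NC replicate 2 was dropped and 3, 2 and 1 when 0 h p.r. replicates 1, 2 and 3 were dropped. Partner genes gave 2 calls in each fit except without NC replicate 2 (1, as Ints6 had a log2 fold change of 0.99) and by the adjusted p alone (4), and leaving out each library gave 1 to 2. Host genes gave 2 calls, 5 by the adjusted p alone (8.33%, against 5.72% of all tested genes) and 1 to 2 when each library was left out. Same-numbered libraries did not deviate together (correlations -0.141, -0.0708, 0.0717 and 0.00562, and 0 of 4 correlated best with their own number). With the replicate number as a block, 7 small RNA genes were called, 4 of them shared with the 6, and host gene calls went to 0. No called small RNA gene changed sign in any fit. Reads limit what can be seen, since 43 small RNA genes had a library at 0. The cause of these shifts was not tested.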
